A study of Mus musculus with 54 samples.

Results

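Chaperone and unfolded protein response genes were followed through mouse peritoneal macrophages that had been polarized and then reprogrammed with siRNA. The 34 genes were taken by their symbols from the 39179 gene identifiers counted, and all 34 passed the filter on low counts in both experiments. They comprise 8 cytosolic members of the HSP70 and HSP90 families with their co-chaperones, 3 mitochondrial chaperones, 15 chaperones and folding enzymes of the endoplasmic reticulum (ER), 5 stress sensors and transcription factors, and 3 outputs of the ATF4 arm. The cells were adherent peritoneal exudate cells of C57BL/6 mice aged 8 to 20 weeks, drawn to the peritoneum by thioglycolate. In the polarization experiment, cells of 3 mice were left unstimulated (M0) or were stimulated over 24 h, either by LPS at 100 ng/ml together with IFNγ at 50 ng/ml (M1-like) or by IL-4 at 10 ng/ml (M2-like), and each mouse and condition was sequenced as 2 technical replicates. The reprogramming experiment held 12 conditions with 3 replicates each: M0, M1-like and M2-like macrophages, untransfected or mock-treated with the transfection reagent alone, and M2-like macrophages given a negative control siRNA pool, a pool against E2f1, Myc, Pparg or Stat6, or the combined pool against all 4. Its M2-like cells were polarized for 24 h and then transfected, IL-4 was left out of the culture after transfection, and by the study's methods the RNA of this experiment was sequenced 48 h after transfection. The study's methods state 24 h of polarization for profiles taken without transfection. They do not say whether this covers the untransfected samples of the reprogramming experiment, so these are named by their experiment and treatment alone. The labels number these replicates 1 to 3 but do not say that they came from separate animals, so their p-values measure only the spread between these samples. Counted reads ranged from 19714994 to 29880494 in the 18 libraries of the first experiment, from 39577911 to 59443987 once technical replicates were summed, and from 13421854 to 19704195 in the 36 libraries of the second.

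Proteins that enter the ER are folded there by the HSP70 protein BiP, encoded by Hspa5, by the HSP90 protein GRP94, encoded by Hsp90b1, by the lectin chaperones calnexin and calreticulin, and by protein disulfide isomerases. When unfolded proteins accumulate, 3 sensors in the ER membrane respond: IRE1, encoded by Ern1, splices the mRNA of Xbp1, ATF6 is cut to release a transcription factor, and PERK, encoded by Eif2ak3, phosphorylates eIF2α, which lowers translation in general and raises that of Atf4. ATF4 activates Ddit3 (CHOP), Trib3 and Ppp1r15a (GADD34), the last of which brings a phosphatase back to eIF2α. Cytosolic heat shock proteins are under a separate factor, HSF1. Macrophages secrete cytokines, enzymes and complement, and the load on their ER changes with activation. Counts per gene show the level of an mRNA and neither the splicing of Xbp1 nor the cleavage of ATF6.

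Known ER stress response elements lie in the promoters of several ER members, and these stretches are shown because the ER genes are the largest group among the 34. In RefSeq (GRCm38.p6), a window from 250 bases before to 50 bases after the start was given for 28 of the 34 members; Hsp90aa1, Hsp90ab1, Hspa8, Hspa9, Atf6 and Manf were not among them. The ER stress response element (CCAAT, then 9 bases of any kind, then CCACG), searched on both strands, was found in 7 members against 0.119% of all 32851 windows. The stretches are printed 5′ to 3′ on the strand of the gene, with the element in capitals (its reverse complement where the element lies on the other strand). The coordinates are those of the printed stretch, and the number after the strand is the position of the first base of the element relative to the RefSeq start.
Hspa5, chr2:34772020-34772048, plus strand, element from -65: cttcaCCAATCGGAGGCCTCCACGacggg
Hsp90b1, chr10:86705618-86705676, minus strand, element from -212: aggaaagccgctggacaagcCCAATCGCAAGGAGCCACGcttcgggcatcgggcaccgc
Hsp90b1, chr10:86705513-86705571, minus strand, element from -107: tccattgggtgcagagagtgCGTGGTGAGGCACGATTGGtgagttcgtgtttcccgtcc
Calr, chr8:84847055-84847113, minus strand, element from -162: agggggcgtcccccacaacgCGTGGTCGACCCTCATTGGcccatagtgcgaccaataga
Canx, chr11:50325780-50325838, minus strand, element from -145: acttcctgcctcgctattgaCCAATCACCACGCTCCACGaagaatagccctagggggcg
Pdia6, chr12:17266471-17266529, plus strand, element from -98: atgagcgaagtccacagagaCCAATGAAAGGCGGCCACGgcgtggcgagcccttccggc
Dnajc3, chr14:118937807-118937865, plus strand, element from -105: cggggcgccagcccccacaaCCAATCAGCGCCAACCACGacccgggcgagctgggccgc
Creld2, chr15:88819500-88819558, plus strand, element from -126: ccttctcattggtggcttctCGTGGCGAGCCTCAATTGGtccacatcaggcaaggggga

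A second form of the element (ATTGG, then 1 base of any kind, then CCACG) was found in Herpud1 and, after the start, in Dnajb11, against 0.0365% of all windows. Herpud1 is printed because its fold change with LPS and IFNγ was the lowest among the 34 genes.
Herpud1, chr8:94386357-94386407, plus strand, element from -52: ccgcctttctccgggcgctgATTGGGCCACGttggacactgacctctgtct
The heat shock element (GAA, TTC and GAA, each parted from the next by 2 bases of any kind) was found in Hspd1 and Hspe1, which are transcribed in opposite directions from annotated 5′ ends that overlap by 112 bases, and after the start in Hsph1, against 0.603% of windows. In Hspd1 and Hspe1 it is the same pair of overlapping matches read from either strand.
Hspd1, chr1:55088054-55088076, minus strand, element from -139: ttccgGAAGGTTCTAGAAcggac
Hspe1, chr1:55088059-55088081, plus strand, element from -84: ttctaGAACCTTCCGGAAggccc
The ATF4 element TGATGNAAT was found in 0 of the 28 windows and in 0.965% of all windows. A match is a stretch of letters and was not tested for binding here, and its absence concerns only this window. Hspa1a and Hspa1b had 247 of 250 bases before the start in common, and 58.8% of the stretches of 50 bases in the transcripts of Hspa1a also occur in Hspa1b, so reads of this pair could be split between them by the counting and their separate values are uncertain. By the GENCODE M21 annotation of GRCm38, Hspa5 lies at chr2:34771970-34777547 on the plus strand, Pdia4 at chr6:47796141-47813430 on the minus strand, Herpud1 at chr8:94386438-94395377 on the plus strand, Ddit3 at chr10:127290774-127296288 on the plus strand and Ppp1r15a at chr7:45522916-45526268 on the minus strand.

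At 24 h, LPS and IFNγ raised the cytosolic chaperones and the ATF4 arm and lowered the mRNA of all 3 ER stress sensors, while the ER chaperones moved in both directions. Of the 34 genes, 18 were higher and 8 lower than in M0, in a comparison in which 72.9% of all 16110 genes tested were called, 35.4% higher and 37.5% lower. Levels are given as CPM, counts scaled to a common normalized library size, and calls are those of edgeR's quasi-likelihood test with a Benjamini-Hochberg adjusted p under 0.05 over all genes tested. The cytosolic group had 6 of 8 genes higher, with a median log2 fold change of 1.19 against -0.04 over all genes. Inducible Hspa1a was at 1.30, 1.19 and 1.38 CPM in the M0 cells of the 3 mice and at 6.73, 7.46 and 13.0 CPM in their M1-like cells (log2 fold change 2.82 ± 0.31 SE, adjusted p = 5.49e-06). Its copy Hspa1b was at 1.60, 1.14 and 1.49 CPM in M0 and at 7.81, 8.53 and 15.5 CPM in M1-like macrophages (2.92 ± 0.33, adjusted p = 6.42e-06). The groups did not overlap for either gene, mouse 3 stood highest for both in the M1-like state, and these remained the least abundant of the 34 genes in M0, at 0.435 and 0.503 CPM per kilobase of exon.

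The abundant cytosolic chaperones rose by less on the log2 scale but from far higher levels. Hsp90ab1, the constitutive HSP90 and per kilobase the most abundant of the 34 genes in M0 at 227.5 CPM per kilobase, went from 686, 672 and 689 CPM to 1476, 1474 and 1328 CPM (1.06 ± 0.07, adjusted p = 2.12e-08). The inducible HSP90 gene Hsp90aa1 went from a mean of 89.3 to 223.5 CPM (1.32), the constitutive HSP70 gene Hspa8 from 324.5 to 689 CPM (1.09), and Dnajb1, the HSP40 that feeds clients to HSP70, from 23.6 to 57.5 CPM (1.29). Hspa4 and Hsph1, both nucleotide exchange factors of HSP70, gave log2 fold changes of -0.08 and -0.03 and did not pass. The mitochondrial chaperonin genes Hspd1 and Hspe1 fell by 0.51 and 0.49 on the log2 scale, and Hspa9, mitochondrial HSP70, rose by 0.26.

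Among the 15 ER genes, 7 were higher, 3 lower and 5 passed in neither direction. Those higher were Creld2 (1.07) and Manf (0.82), which encode small ER proteins induced by ER stress, P4hb (0.81), a disulfide isomerase, Dnajb11 (0.68), a co-chaperone of BiP, and Hspa5 (0.55), Hsp90b1 (0.46) and Calr (0.22), the last of which lost its call when M0 mouse 3 or M1-like mouse 1 or 2 was left out. Herpud1, which recruits the machinery of ER-associated degradation, fell from 24.5, 23.4 and 24.8 CPM to 6.81, 7.15 and 8.84 CPM (-1.67 ± 0.10, adjusted p = 1.34e-08). Sdf2l1, a component of the BiP chaperone complex, fell from 42.5, 37.9 and 35.1 CPM to 20.1, 20.7 and 20.2 CPM (-0.92 ± 0.08, adjusted p = 8.52e-07). The disulfide isomerase Pdia4 fell by 0.31, and Dnajb9, Dnajc3, Pdia3, Pdia6 and Canx gave values between -0.13 and 0.19. Thus genes that share the ER stress element, such as Creld2 at 1.07 and Dnajc3 at -0.13, did not move by like amounts.

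The sensors fell together at 24 h. Atf6 was at 181.9, 174.5 and 186.5 CPM in M0 and at 116, 113 and 112 CPM in M1-like macrophages (-0.67 ± 0.06, adjusted p = 1.1e-06). Ern1 went from 101, 109.5 and 105 to 66.7, 66.5 and 66.2 CPM (-0.66 ± 0.05, adjusted p = 2.42e-07). Eif2ak3 went from 33.1, 31.4 and 33.6 to 21.2, 20.1 and 20.6 CPM (-0.67 ± 0.06, adjusted p = 6.23e-07), so each of the 3 sensors fell by close to the same amount and with no overlap between the groups. Total Xbp1 mRNA was at 123, 119 and 127 CPM in M0 and at 128, 125.5 and 129 CPM in M1-like macrophages and did not pass (0.05).

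The ATF4 arm rose in the same cells. Atf4 itself went from 280.4, 285 and 302 CPM to 539, 528 and 539 CPM (0.89 ± 0.06, adjusted p = 2.86e-08). Ppp1r15a, the regulatory subunit that returns eIF2α to its unphosphorylated form, went from 38.5, 37.9 and 42.2 CPM to 156, 158 and 151 CPM (1.97 ± 0.07, adjusted p = 9.21e-11). The pseudokinase gene Trib3 went from a mean of 34.9 to 67.2 CPM (0.94), and Ddit3, encoding the transcription factor CHOP, from 49.4, 52.8 and 55.3 CPM to 63.8, 70.7 and 86.4 CPM (0.49 ± 0.10, adjusted p = 0.000633). Ddit3 overlaps exons of Mars and Gm4189 and Ppp1r15a those of Tulp2 on the opposite strand, and whether reads were counted by strand is not given in the sources used here. Other members share exons too, among them Manf with Rbm15b and Hsp90b1 with Gm15344 on the same strand. Pdia3 overlaps Catsper2 and Pdia6 overlaps Atp6v1c2 on the opposite strand.

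**Figure D1:**
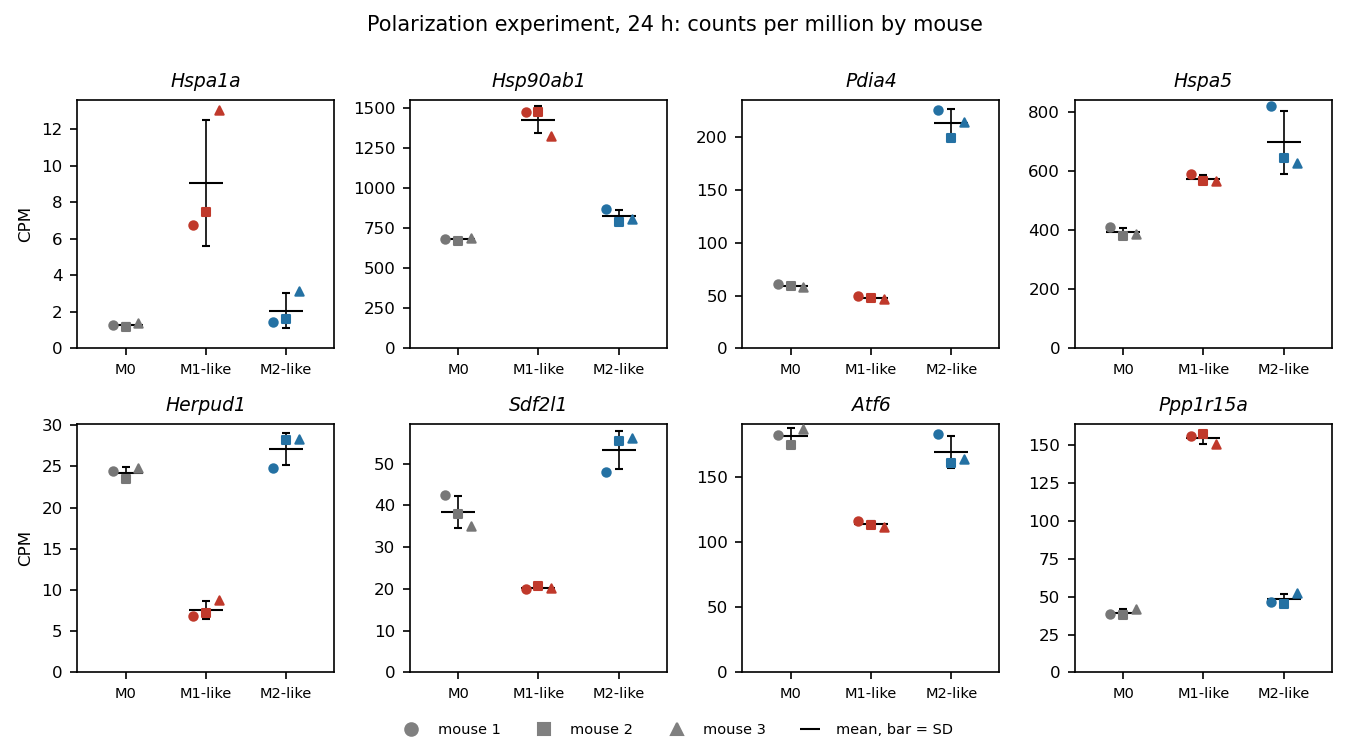
Levels in CPM (y axis, from 0) of 8 genes in M0, M1-like and M2-like macrophages after 24 h (x axis), with 1 symbol per mouse, the mean and a bar of 1 SD (n = 3 mice). Hspa1a, Hsp90ab1 and Ppp1r15a are highest in all M1-like samples, Pdia4 and Hspa5 in all M2-like samples, and Herpud1, Sdf2l1 and Atf6 are lowest in all M1-like samples.

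IL-4 raised these genes nearly throughout, and by modest amounts. In M2-like against M0 macrophages at 24 h, 26 of the 34 genes were higher and the other 8 did not pass, where 27.9% of all genes tested were called, 13.5% higher and 14.4% lower, and the median of the 34 genes was 0.47 on the log2 scale against 0.00 over all genes. Without mouse 1 of the M2-like group, 1 member passed as lower. Of the 15 ER genes, 14 were higher. The largest rise was that of Pdia4, from 61.5, 58.9 and 58.0 CPM in M0 to 226, 199.5 and 215 CPM in M2-like macrophages (1.84 ± 0.06, adjusted p = 4.27e-09), whereas it fell by 0.31 in M1-like cells.

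BiP and GRP94 followed. Hspa5 was at 410.3, 379 and 386.5 CPM in M0 and at 819, 645 and 626 CPM in M2-like macrophages (0.83 ± 0.09, adjusted p = 6.5e-05). Hsp90b1 was at 337, 333 and 328 CPM in M0 and at 699.9, 530.3 and 480.1 CPM in M2-like macrophages (0.78 ± 0.12, adjusted p = 0.000523). Mouse 1 gave the highest M2-like value of both, and all M2-like values lay above all M0 values. The other ER genes rose by between 0.32 (P4hb) and 0.70 (Creld2), among them Manf (0.69), Pdia6 (0.64), Calr (0.61), Pdia3 (0.54), Dnajc3 (0.48), Sdf2l1 (0.47), Dnajb9 (0.42), Dnajb11 (0.41) and Canx (0.33). Only Herpud1 (0.16) did not pass among these 15 genes. P4hb lost its call without mouse 2 of M0, and Canx without any 1 of the M0 mice.

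Outside the ER, IL-4 raised 5 of 8 cytosolic genes, with Hsph1 at 0.69, Hsp90aa1 at 0.45, Hspa4 at 0.42, Hspa8 at 0.41 and Hsp90ab1 at 0.27. Hspa1a (0.69) and Hspa1b (0.84) had larger values than most of these but did not pass. The mitochondrial genes Hspd1 and Hspa9 rose by 0.63 and 0.61. Total Xbp1 rose to 188, 176 and 175 CPM (0.55 ± 0.06, adjusted p = 3.1e-05), whereas Ern1 at 113, 119 and 113.5 CPM (0.13), Eif2ak3 at 31.0, 32.6 and 32.1 CPM (-0.04) and Atf6 at 183, 160.3 and 164 CPM (-0.10) did not pass. Atf4 reached 337, 332 and 351 CPM (0.23 ± 0.06, adjusted p = 0.00931, lost without mouse 1 of M0) and Ddit3 69.2, 73.2 and 75.9 CPM (0.47 ± 0.10, adjusted p = 0.00373), with Trib3 at 0.52 and Ppp1r15a at 0.29.

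Between the stimulated states at 24 h, M1-like macrophages were higher than M2-like for 13 of the 34 genes and lower for 19, where 72.6% of all genes tested were called, 34.6% higher and 38.1% lower. The cytosolic group split, with 6 genes higher and 2 (Hsph1 at -0.72 and Hspa4 at -0.50) lower, all 3 mitochondrial genes were lower, and 10 of the 15 ER genes were lower, from Pdia4 (-2.15) and Herpud1 (-1.83) to Canx (-0.23). P4hb (0.49), Creld2 (0.37), Dnajb11 (0.28) and Manf (0.13) were higher. Among these calls, that of Hspa5 (-0.28) was lost without mouse 2 of the M1-like group, that of Hsp90b1 (-0.31) without mouse 2 or 3 of the M1-like group or mouse 1 of the M2-like group, that of Canx without any 1 M1-like mouse or mouse 1 of the M2-like group, and that of Manf without mouse 1 or 2 of the M1-like or mouse 2 or 3 of the M2-like group. All 3 sensors and Xbp1 were lower and Atf4 (0.65), Ppp1r15a (1.68) and Trib3 (0.42) higher, while Ddit3 did not pass (0.02).

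Genes of the same pathways outside the 34, from lists set out by function, moved in part with them. With LPS and IFNγ, 12 of 21 other cytosolic heat shock genes were higher and 2 lower, and 14 of 24 other ATF4 targets were higher and 9 lower, among them Ddit4 (4.22), the cystine transporter gene Slc7a11 (3.67) and Wars (3.28), which is also induced by interferon. Of 40 other genes of ER folding, degradation and translocation, 18 were higher and 13 lower, with the ER oxidase gene Ero1l at 4.46 and the prolyl isomerase gene Fkbp11 at -3.59. With IL-4, 24 of those 40 were higher and 2 lower, led by Hyou1 (0.55), an ER HSP70-like exchange factor, and 12 of 14 subunits of the cytosolic chaperonin CCT and of prefoldin were higher. The serine synthesis genes Psat1 (1.14) and Phgdh (0.81) rose among 13 of 24 ATF4 targets. These lists are described by their counts, beside the shares over all genes given for each comparison.

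**Figure D2:**
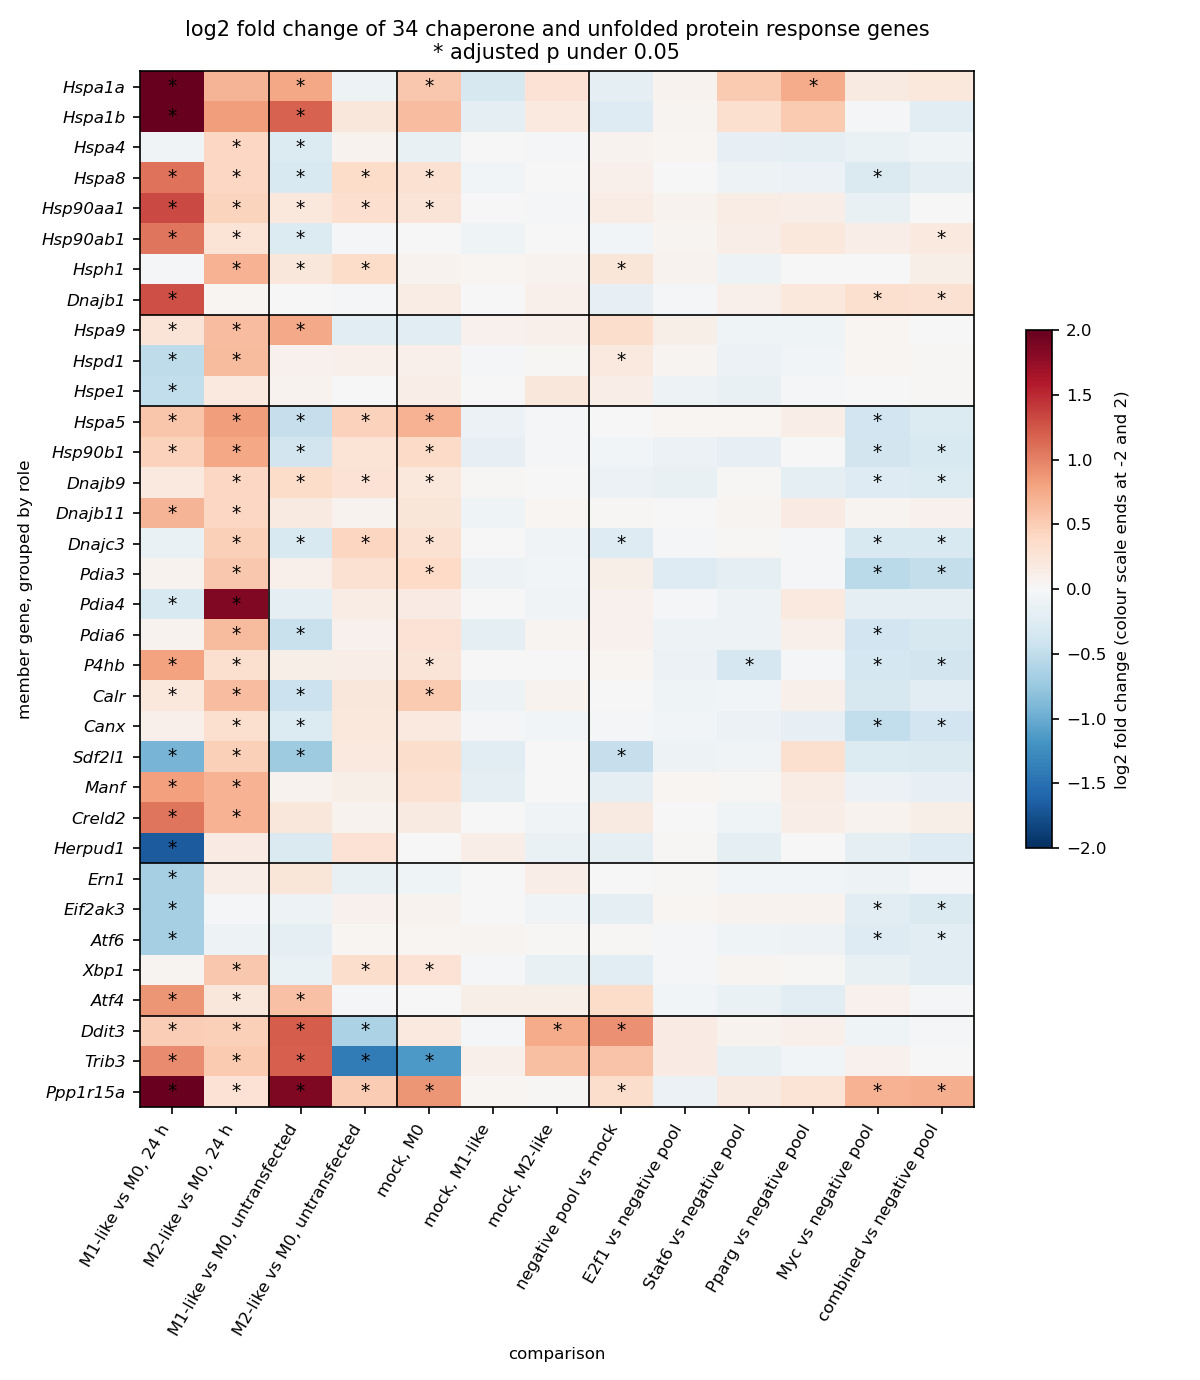
Heat map of log2 fold changes of the 34 genes (rows, in their 5 role groups) in 13 comparisons (columns), with red for higher, blue for lower and an asterisk for an adjusted p under 0.05. The IL-4 column at 24 h holds 26 asterisks, all on red cells, the column for mock treatment of M1-like macrophages holds none, and the columns of the Myc and combined pools hold blue ER genes beside a red Ppp1r15a.

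In the reprogramming experiment, more ER genes were lower than higher in untransfected M1-like macrophages. Against untransfected M0 macrophages, 10 of the 34 genes were higher and 10 lower, where 57.7% of all 14172 genes tested were called, 29.0% higher and 28.7% lower, and among the ER genes 1 (Dnajb9, 0.37) was higher and 7 were lower. The log2 fold change of Hspa5 was 0.55 at 24 h and -0.47 here, that of Hsp90b1 0.46 and -0.37, that of Calr 0.22 and -0.43, and that of Hsp90ab1 1.06 and -0.28. These pairs of values come from different experiments with different libraries and read lengths, and the difference between them was not tested. Hspa1a (0.78) and Hspa1b (1.18) were higher than in M0, and so were all 3 outputs of the ATF4 arm, Ppp1r15a at 1.87, Ddit3 at 1.22 and Trib3 at 1.20, with Atf4 at 0.58. The 3 sensors, all lower at 24 h, did not pass here. Ern1 was at 133, 119 and 97.8 CPM against 102, 99.7 and 92.5 CPM in M0. Eif2ak3 was at 33.3, 32.5 and 31.2 CPM against 35.8, 33.4 and 34.6 CPM. Atf6 was at 141, 124 and 119.6 CPM against 147, 140.5 and 146 CPM. The call of Calr was lost without M1-like replicate 3, that of Hsph1 (0.22) without M0 replicate 3 or M1-like replicate 2, and that of Hsp90aa1 (0.21) without M0 replicate 1 or 3 or M1-like replicate 3. The 8 macrophage markers summed to 6950 to 8090 CPM in these M1-like libraries against 16600 to 17000 CPM in M0, the 6 mesothelial or fibroblast markers to 14.4 to 50.9 against 66.5 to 134 CPM, and the 5 B cell markers to 0.732 to 1.47 against 9.34 to 32.4 CPM, and their part in these differences was not tested.

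Untransfected M2-like macrophages of this experiment were above M0 for 3 of the 15 ER genes. Against M0, 8 genes were higher and 2 lower, where 19.9% of all genes were called, 10.7% higher and 9.19% lower. Hspa5 was at 439, 474 and 428 CPM in M0 and at 582, 585 and 684 CPM in M2-like macrophages (0.47 ± 0.12, adjusted p = 0.00557). Higher too were Dnajc3 (0.44), Xbp1 (0.36), Dnajb9 (0.29), Hspa8 and Hsph1 (0.37 each), Hsp90aa1 (0.34) and Ppp1r15a (0.51). Pdia4, the gene with the largest rise at 24 h, was at 61.6, 70.4 and 83.4 CPM against 65.9, 66.2 and 61.8 CPM in M0 and did not pass (0.15). Ddit3 fell by 0.64 and Trib3 by 1.40, the latter without a call once M2-like replicate 3 was left out, which leaves 1 gene lower.

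Placed directly beside each other, M1-like macrophages of the reprogramming experiment had less mRNA of ER chaperones and more of the ATF4 outputs than M2-like ones. Untransfected, 8 genes were higher and 15 lower, where 61.5% of all genes were called, 31.3% higher and 30.2% lower. After mock treatment 5 were higher and 15 lower, where 60.7% of all genes were called, 30.9% higher and 29.8% lower. In either comparison 9 of the 15 ER genes were lower and the other 6 did not pass. Hspa5 was at 335, 323 and 311 CPM in untransfected M1-like against 582, 585 and 684 CPM in M2-like macrophages (-0.93 ± 0.12, adjusted p = 5.91e-08), and at 303, 288 and 302.5 CPM against 549, 589.8 and 689 CPM after mock treatment (-1.03 ± 0.12, adjusted p = 9.26e-09). Sdf2l1 was lower by 0.90 and 1.12 on the log2 scale, Calr by 0.65 and 0.82, Dnajc3 by 0.73 and 0.67, Hsp90b1 by 0.65 and 0.79, Pdia6 by 0.54 and 0.78, and Canx by 0.49 and 0.48. Pdia4 was lower by 0.35 and 0.29 and lost its call without M2-like replicate 3, and after mock treatment without M1-like mock replicate 2 or M2-like mock replicate 3. Pdia3 passed only after mock treatment (-0.26), and its call was lost without M2-like mock replicate 2 or 3 or any 1 M1-like mock sample.

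The outputs moved the other way. Trib3 was at 47.6, 64.0 and 79.4 CPM in untransfected M1-like and at 13.7, 12.7 and 5.29 CPM in M2-like macrophages (2.59 ± 0.37, adjusted p = 4.36e-07). Ddit3 was at 137, 135 and 167 CPM against 43.2, 38.9 and 39.1 CPM (1.86 ± 0.14, adjusted p = 5.38e-13), with M0 in between at 70.02, 53.5 and 65.2 CPM. Ppp1r15a was at 98.4, 97.2 and 105 CPM against 39.3, 36.7 and 41.5 CPM (1.36 ± 0.10, adjusted p = 5.61e-13). Atf4 was at 266.5, 391.7 and 362 CPM against 244, 221.5 and 201 CPM (0.62 ± 0.14, adjusted p = 0.000372), and Hspa9 was higher by 0.98. For Trib3, Ddit3, Ppp1r15a and Atf4, every M1-like value lay above every M2-like value.

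Among the sensors, Ern1 was higher and Eif2ak3 and Atf6 lower in untransfected M1-like macrophages, where all 3 were lower at 24 h (Ern1 at -0.79). The difference between the experiments was not tested. Ern1 was at 133, 119 and 97.8 CPM in M1-like against 91.5, 98.1 and 76.6 CPM in M2-like macrophages, with overlap (0.39 ± 0.15, adjusted p = 0.0225). Eif2ak3 was at 33.3, 32.5 and 31.2 against 36.4, 34.9 and 39.0 CPM (-0.18 ± 0.07, adjusted p = 0.0208), and Atf6 at 141, 124 and 119.6 against 150.7, 153 and 144 CPM (-0.22 ± 0.08, adjusted p = 0.0172). Xbp1 was at 125.5, 99.7 and 124 against 150.2, 159 and 179 CPM (-0.48 ± 0.09, adjusted p = 1.84e-05). Of these, Xbp1 kept its call whichever library was left out. The call of Ern1 was lost without M1-like replicate 1 or 2 or M2-like replicate 3, that of Eif2ak3 without replicate 3 of either group, and that of Atf6 without M1-like replicate 2 or 3 or M2-like replicate 2. Between mock-treated M1-like and M2-like macrophages, Ern1 and Eif2ak3 did not pass, while Atf6 and Xbp1 were lower in M1-like cells. There the call of Atf6 was lost without M1-like mock replicate 2 or 3 or M2-like mock replicate 1 or 2. Herpud1 was lower by 0.58 untransfected, and after mock treatment it did not pass (-0.32).

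Markers of other cells moved with this comparison. The 8 macrophage markers summed to 6950 to 8090 CPM in untransfected M1-like libraries of the reprogramming experiment against 16000 to 18400 CPM in M2-like ones. The 6 mesothelial or fibroblast markers summed to 14.4 to 50.9 CPM in M1-like and 51.6 to 225 CPM in M2-like libraries, with Krt19 at 0 in the former, and the 5 B cell markers to 0.732 to 1.47 CPM against 6.94 to 14.8 CPM. Their part in the chaperone differences was not tested, and in bulk RNA fewer cells of a type cannot be told apart from less RNA per cell. At 24 h the macrophage markers summed to 16200 to 17400 CPM in M0, 10400 to 11400 CPM in M1-like and 12700 to 13100 CPM in M2-like samples, the mesothelial or fibroblast markers to 10.4 to 17.6, 2.49 to 3.99 and 9.25 to 12.5 CPM, and the 4 eosinophil markers to 15.6 to 17.0, 0.27 to 0.817 and 14.0 to 19.1 CPM in the same order, and 8 of 8 macrophage markers were at 1 CPM or more on average in every condition of both experiments. Of the 4 eosinophil markers, 1 was at 1 CPM or more on average in M0 and in M2-like samples at 24 h, and 0 in M1-like samples. Prg2 was at 0 in all of these samples, so the eosinophil sum rests mainly on a single gene and does not show eosinophils.

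Several ER chaperones were higher in mock-treated than in untransfected M0 macrophages. It is not stated whether the untransfected samples were taken after 24 h of polarization, so the reagent cannot be told apart from a possible difference in culture time. The same holds for the other comparisons of mock-treated with untransfected cells. In M2-like cells the reagent also cannot be told apart from the absence of IL-4 after transfection. Against untransfected M0 cells, 12 of the 34 genes were higher and 1 lower after the transfection reagent, where 20.4% of all genes were called, 11.7% higher and 8.66% lower, and 7 of the 15 ER genes were among them. Hspa5 went from 439, 474 and 428 CPM to 704, 685 and 781 CPM (0.69 ± 0.12, adjusted p = 6.08e-05), so mock-treated M0 cells held the highest mean of this gene in the experiment. Hsp90b1 went from 325.5, 354 and 321 CPM to 444.5, 406 and 461 CPM (0.39 ± 0.11, adjusted p = 0.00709), and Calr from 892, 884 and 905 CPM to 1211, 1199 and 1426 CPM (0.52 ± 0.15, adjusted p = 0.0146). Pdia3 (0.40), Dnajc3 (0.30), P4hb (0.26) and Dnajb9 (0.22) rose as well. Xbp1 went from 125, 133 and 124 CPM to 147, 158 and 164 CPM (0.30 ± 0.09, adjusted p = 0.0148).

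Within the ATF4 arm, the outputs separated in mock-treated M0 cells. Ppp1r15a rose from 28.2, 26.5 and 27.7 CPM to 53.2, 54.9 and 43.2 CPM (0.88 ± 0.11, adjusted p = 2.33e-07), whereas Trib3 fell from 30.5, 24.2 and 28.8 CPM to 11.6, 12.2 and 13.8 CPM (-1.15 ± 0.37, adjusted p = 0.0267). Atf4 (0.01) and Ddit3 (0.19) did not pass, and 3 of 25 other ATF4 targets were lower, Psat1 (-1.07), Cebpg (-0.78) and Eif4ebp1 (-0.59). The sensors did not pass. Ern1 went from 102, 99.7 and 92.5 to 88.9, 101.2 and 85.5 CPM (-0.09), Eif2ak3 from 35.8, 33.4 and 34.6 to 36.8, 34.4 and 37.2 CPM (0.06) and Atf6 from 147, 140.5 and 146 to 152, 137 and 158 CPM (0.04), all with overlap. The heat shock genes Hspa1a (0.54), Hspa8 (0.30) and Hsp90aa1 (0.25) rose. Hspa5, Hsp90b1, Dnajc3 and Ppp1r15a kept their calls whichever library of the pair of groups was left out, and the other 9 genes lost theirs in at least 1 case. Without M0 replicate 3 the genes called higher numbered 7 and without M0 mock replicate 3 they numbered 6, while the call of Trib3 was lost without M0 replicate 1 or 3 or M0 mock replicate 1 or 2. The macrophage markers summed to 12900 to 15700 CPM in mock-treated M0 libraries against 16600 to 17000 CPM in untransfected ones, and their part in these differences was not tested.

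In M1-like macrophages the same treatment changed 0 of the 34 genes and 0 of all 14172 genes (0.0%). At an unadjusted p under 0.05 it gave 0 members and 438 genes in all (3.09%), and DESeq2 called 0 as well. Hspa5 was at 335, 323 and 311 CPM untreated and 303, 288 and 302.5 CPM after mock treatment (-0.12 ± 0.12). In M2-like macrophages 1 member was higher and the other 33 did not pass, where 1.77% of all genes were called, 1.67% higher and 0.0988% lower, and 2 members (5.9%) passed at an unadjusted p under 0.05, as did 9.01% of all genes, while DESeq2 called 1 and the fit with no filter called 2. This was Ddit3, at 43.2, 38.9 and 39.1 CPM untreated and at 62.7, 74.6 and 64.5 CPM after mock treatment (0.74 ± 0.14, adjusted p = 0.00131), with no overlap.

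The difference between these mock effects was tested directly. Between M2-like and M0 macrophages it passed for 4 members, Hspa5 (-0.71), Ppp1r15a (-0.86), Xbp1 (-0.44) and Dnajc3 (-0.37), against 5.66% of all genes. Between M1-like and M0 macrophages it passed for 5, Hspa5 (-0.81), Ppp1r15a (-0.83), Hspa1a (-0.86), Hsp90b1 (-0.56) and Hspa8 (-0.36), against 9.07%. Between M1-like and M2-like macrophages it passed for 1, Ddit3 (-0.77), against 1.13%. With no filter the first count was 8. The second was 8 with RLE scaling or with 10 counts required in every sample, and 9 with no filter or with DESeq2. Hspa5 and Ppp1r15a kept their calls in both contrasts with M0 whichever library was left out. Without M0 replicate 1 or 3, M2-like mock replicate 1 or 2 or M2-like replicate 3, the first count was 2, and without M0 replicate 3 the second was 3. Between M1-like and M0 macrophages, the call of Hspa8 was lost in 9 of 12 fits with 1 library left out and that of Hspa1a in 3 of 12. That of Ddit3 between M1-like and M2-like macrophages was lost without M1-like replicate 3, M1-like mock replicate 1 or 2, M2-like mock replicate 2 or 3, or any 1 of the untransfected M2-like samples.

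**Figure D3:**
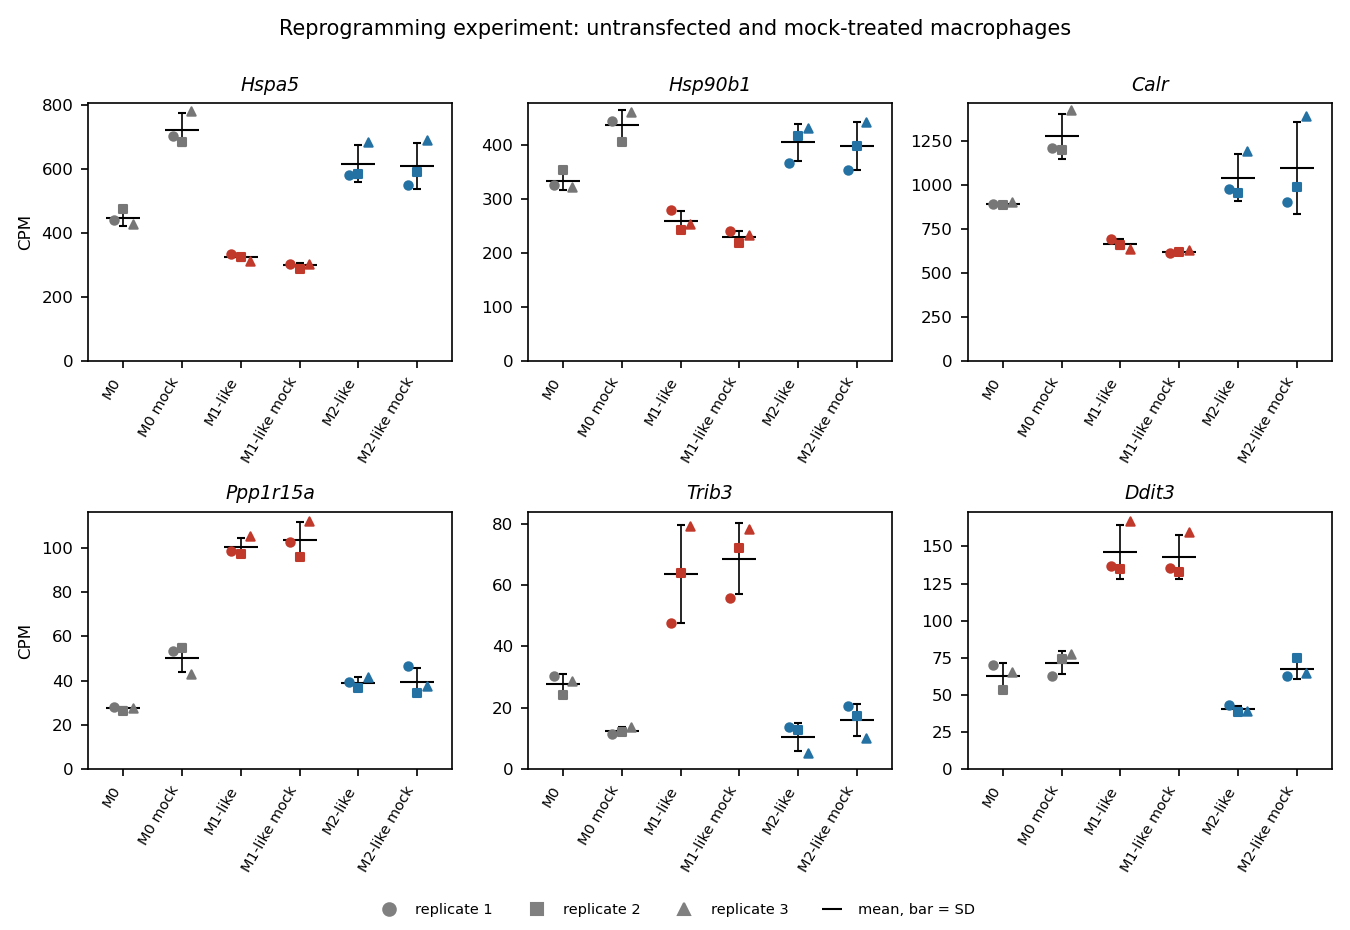
Levels in CPM (y axis, from 0) of 6 genes in untransfected and mock-treated M0, M1-like and M2-like macrophages of the reprogramming experiment (x axis), with 1 symbol per replicate, the mean and a bar of 1 SD (n = 3). Hspa5, Hsp90b1, Calr and Ppp1r15a are higher in all mock-treated M0 samples than in untreated M0, the M1-like pairs lie close together, and Trib3 and Ddit3 are highest in M1-like samples.

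The negative control siRNA pool changed a few of these genes relative to mock treatment of M2-like macrophages. Of the 34, 4 were higher and 2 lower, where 11.7% of all genes were called, 6.67% higher and 5.03% lower. Ddit3 went from 62.7, 74.6 and 64.5 CPM to 137, 129 and 115 CPM (0.92 ± 0.14, adjusted p = 1.76e-05). With the mock effect this places Ddit3 in 3 levels that do not overlap, from about 40.4 CPM on average untransfected to 67.2 CPM with the reagent and 127 CPM with reagent and negative pool. Ppp1r15a went from 46.5, 34.6 and 37.8 CPM to 54.1, 50.6 and 46.3 CPM, with overlap (0.34 ± 0.11, adjusted p = 0.0283), and Hsph1 from 73.8, 71.6 and 65.2 CPM to 85.5, 81.1 and 83.7 CPM (0.25 ± 0.07, adjusted p = 0.0184). Hspd1 rose by 0.20.

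The genes that fell with the negative pool belong to the ER. Sdf2l1 went from 80.4, 73.9 and 129 CPM to 70.6, 62.0 and 73.3 CPM (-0.46 ± 0.15, adjusted p = 0.0467), and mock replicate 3 alone held the value of 129 CPM. Dnajc3, a BiP co-chaperone also known as an inhibitor of PERK, went from 133, 134 and 145 CPM to 114, 105 and 124.5 CPM (-0.26 ± 0.07, adjusted p = 0.0171). Only Ddit3 of these 6 genes kept its call whichever library was left out. Without mock replicate 2 or 3 or negative pool replicate 2 or 3 the genes called higher numbered 2, without negative pool replicate 1 they numbered 1, and those called lower numbered 0 without mock replicate 3 or negative pool replicate 1 or 2. With only the compared groups in the fit, 2 were higher and 1 lower. The sensors, Xbp1 and Atf4 did not pass. Ern1 was at 105, 101 and 87.5 CPM after mock treatment and at 101, 102.5 and 90.7 CPM with the negative pool (0.00), Eif2ak3 at 34.1, 35.0 and 35.4 against 30.7, 28.0 and 32.2 CPM (-0.20), and Atf6 at 157, 161 and 136 against 149.7, 156 and 156 CPM (0.02). Xbp1 was at 144, 135 and 163 against 128, 116 and 135 CPM (-0.22), and Atf4 at 277, 253 and 194 against 342, 326 and 270 CPM (0.37 ± 0.14, adjusted p = 0.0846). Among other ATF4 targets, Nupr1 (1.20) and Slc7a11 (0.78) were higher with the negative pool, 2 of 25. The macrophage markers summed to 12500 to 13600 CPM with the negative pool against 14800 to 16100 CPM after mock treatment. In the same order, the eosinophil markers summed to 33.5 to 38.8 against 18.8 to 20.1 CPM, with 1 of 4 at 1 CPM or more on average. The mesothelial or fibroblast markers summed to 142 to 213 against 80.1 to 142 CPM and 5 mast cell markers to 5.47 to 8.12 against 3.01 to 5.37 CPM. The B cell markers overlapped, at 6.57 to 18.3 against 6.9 to 12.5 CPM. The part of these markers was not tested.

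As a check of the labels, each targeted transcript was lower in its own pool than with the negative pool. E2f1 stood at 25.2% ± 4.05 (SD, n = 3) of its level with the negative pool, Myc at 38.0% ± 8.01, Pparg at 21.9% ± 2.57 and Stat6 at 27.3% ± 5.79, and in the combined pool they stood at 60.4%, 39.6%, 28.3% and 53.9%.

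ER chaperones were lower and Ppp1r15a was higher with the Myc pool and with the combined pool, in which the effect of Myc was not separated from that of the other targets. By the study's methods the Myc pool came from Dharmacon and the pools against E2f1, Pparg and Stat6 from siTools Biotech. The effect of the Myc target therefore cannot be told apart from that of the siRNA source. No source is given for the negative pool. Against the negative pool, the Myc pool had 2 of the 34 genes higher and 11 lower, where 29.6% of all genes were called, 13.9% higher and 15.6% lower. The combined pool had 3 higher and 8 lower, where 26.5% were called, 12.5% higher and 13.9% lower. Of the 15 ER genes, 8 were lower with the Myc pool and 6 with the combined pool, while the rest did not pass, with medians of -0.31 and -0.27 against 0.00 and 0.01 over all genes. With only the compared groups in the fit, the combined pool had 13 lower. The macrophage markers summed to 11700 to 11900 CPM with the Myc pool and 11900 to 12900 CPM with the combined pool against 12500 to 13600 CPM with the negative pool, and their part was not tested. Both comparisons share the negative pool samples, so their values are not independent of each other.

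Pdia3, the glycoprotein disulfide isomerase, was at 534, 522 and 641 CPM with the negative pool, at 379, 352 and 436 CPM with the Myc pool (-0.54 ± 0.12, adjusted p = 0.000589) and at 375, 386 and 452.5 CPM with the combined pool (-0.48 ± 0.12, adjusted p = 0.00209). Canx, encoding calnexin, with which PDIA3 works, was at 376, 355 and 399 CPM, then 281.5, 249.7 and 272 CPM (-0.49 ± 0.08, adjusted p = 1.3e-05) and 272, 281 and 310.1 CPM (-0.39 ± 0.08, adjusted p = 0.000317). P4hb, the founding disulfide isomerase, was at 497, 476 and 519 CPM, then 399, 364 and 407 CPM (-0.35 ± 0.08, adjusted p = 0.000701) and 373, 367 and 415 CPM (-0.37 ± 0.08, adjusted p = 0.000463). For all 3 genes, every value with either pool lay below every value with the negative pool.

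Hspa5 was at 594.5, 553 and 690.4 CPM with the negative pool and at 467.5, 420.3 and 515 CPM with the Myc pool (-0.39 ± 0.12, adjusted p = 0.0133), a call that was lost without Myc pool replicate 2 or negative pool replicate 3. With the combined pool it was at 485, 466 and 569.8 CPM and did not pass (-0.27 ± 0.12, adjusted p = 0.0907). Replicate 3 was the highest of the 3 in each of these groups, as it was for Pdia3. Dnajc3 (-0.31 in both), Dnajb9 (-0.26 and -0.27) and Hsp90b1 (-0.36 and -0.30) fell with both pools, and Pdia6 (-0.38) passed with the Myc pool. Pdia4, Calr, Sdf2l1, Manf, Creld2, Herpud1 and Dnajb11 passed with neither, at values between -0.31 and 0.12. The call of Hsp90b1 was lost without negative pool replicate 3 with either pool and, with the combined pool, also without combined pool replicate 1 or 2, and that of Pdia6 without Myc pool replicate 1 or 2 or negative pool replicate 3. Without Myc pool replicate 2 or negative pool replicate 3, the genes lower with the Myc pool numbered 7.

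Of the sensors, Eif2ak3 and Atf6 fell with these pools and Ern1 did not pass, while Ppp1r15a rose. Eif2ak3 was at 30.7, 28.0 and 32.2 CPM with the negative pool, at 27.4, 26.0 and 24.8 CPM with the Myc pool (-0.22 ± 0.07, adjusted p = 0.0177) and at 25.7, 24.7 and 23.8 CPM with the combined pool (-0.29 ± 0.07, adjusted p = 0.00214). Atf6 was at 149.7, 156 and 156 CPM, then 138, 122 and 124 CPM (-0.26 ± 0.08, adjusted p = 0.0115) and 130.2, 139 and 123 CPM (-0.23 ± 0.08, adjusted p = 0.0255). Ppp1r15a was at 54.1, 50.6 and 46.3 CPM, then 84.6, 77.5 and 83.3 CPM (0.70 ± 0.10, adjusted p = 3.58e-06) and 94.1, 75.8 and 80.4 CPM (0.73 ± 0.10, adjusted p = 2.23e-06). With the Myc pool the call of Eif2ak3 was lost without Myc pool replicate 3 or negative pool replicate 1 or 3, and that of Atf6 without Myc pool replicate 2 or 3, while with the combined pool that of Atf6 was lost without combined pool replicate 1 or 3 or negative pool replicate 2 or 3. Ern1 was at 101, 102.5 and 90.7 CPM with the negative pool, 102.3, 95.7 and 76.2 CPM with the Myc pool (-0.10) and 109, 103 and 76.7 CPM with the combined pool (-0.03). Xbp1 was at 128, 116 and 135 CPM, then 117, 108 and 117 CPM (-0.14) and 110.2, 102.4 and 113 CPM (-0.22), and did not pass with either. The rest of the ATF4 arm did not pass with either pool. Atf4 was at 342, 326 and 270 CPM with the negative pool, 372, 316 and 305 CPM with the Myc pool (0.08) and 340.3, 313 and 263 CPM with the combined pool (-0.03). Ddit3 was at 131.5, 134 and 90.6 CPM with the Myc pool (-0.09) and at 145, 124 and 104 CPM with the combined pool (-0.03), and Trib3 gave 0.09 and -0.01.

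The cytosolic genes moved little with these pools. Dnajb1 was at 35.6, 35.7 and 37.1 CPM with the negative pool, at 45.3, 44.2 and 45.4 CPM with the Myc pool (0.32 ± 0.08, adjusted p = 0.0025) and at 45.4, 41.8 and 46.6 CPM with the combined pool (0.30 ± 0.08, adjusted p = 0.00409). Hsp90ab1 was at 764, 800 and 735 CPM with the negative pool and at 876, 879 and 889 CPM with the combined pool (0.20 ± 0.07, adjusted p = 0.0324), a call lost without any 1 of the combined pool samples or without negative pool replicate 1 or 3. Hspa8 fell by 0.29 with the Myc pool, a call lost without Myc pool replicate 2. Relative to mock instead of the negative pool, the combined pool had 5 members higher and 12 lower (37.1% of all genes were called, 19.0% higher and 18.1% lower), with Ppp1r15a at 1.07, Ddit3 at 0.89, Sdf2l1 at -0.74 and Dnajc3 at -0.57, and without M2-like mock replicate 2 those higher numbered 3.

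Other genes of the ER moved with the members under these pools. Of the 40 other genes of ER folding, degradation and translocation, 19 were lower and 1 higher with the Myc pool and 17 were lower and 1 higher with the combined pool. Ssr3, a subunit of the translocon-associated complex, was lower by 0.99 and 0.87 on the log2 scale, and the oxidase gene Ero1lb by 0.59 and 0.55. The amino acid transporter subunit Slc3a2, an ATF4 target, was higher at 0.61 and 0.56, whereas Atf3 was lower at -0.31 and -0.32. Of 12 other genes of mitochondrial protein quality control, 6 and 5 were higher, among them the protease gene Clpp (0.49 and 0.42).

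**Figure D4:**
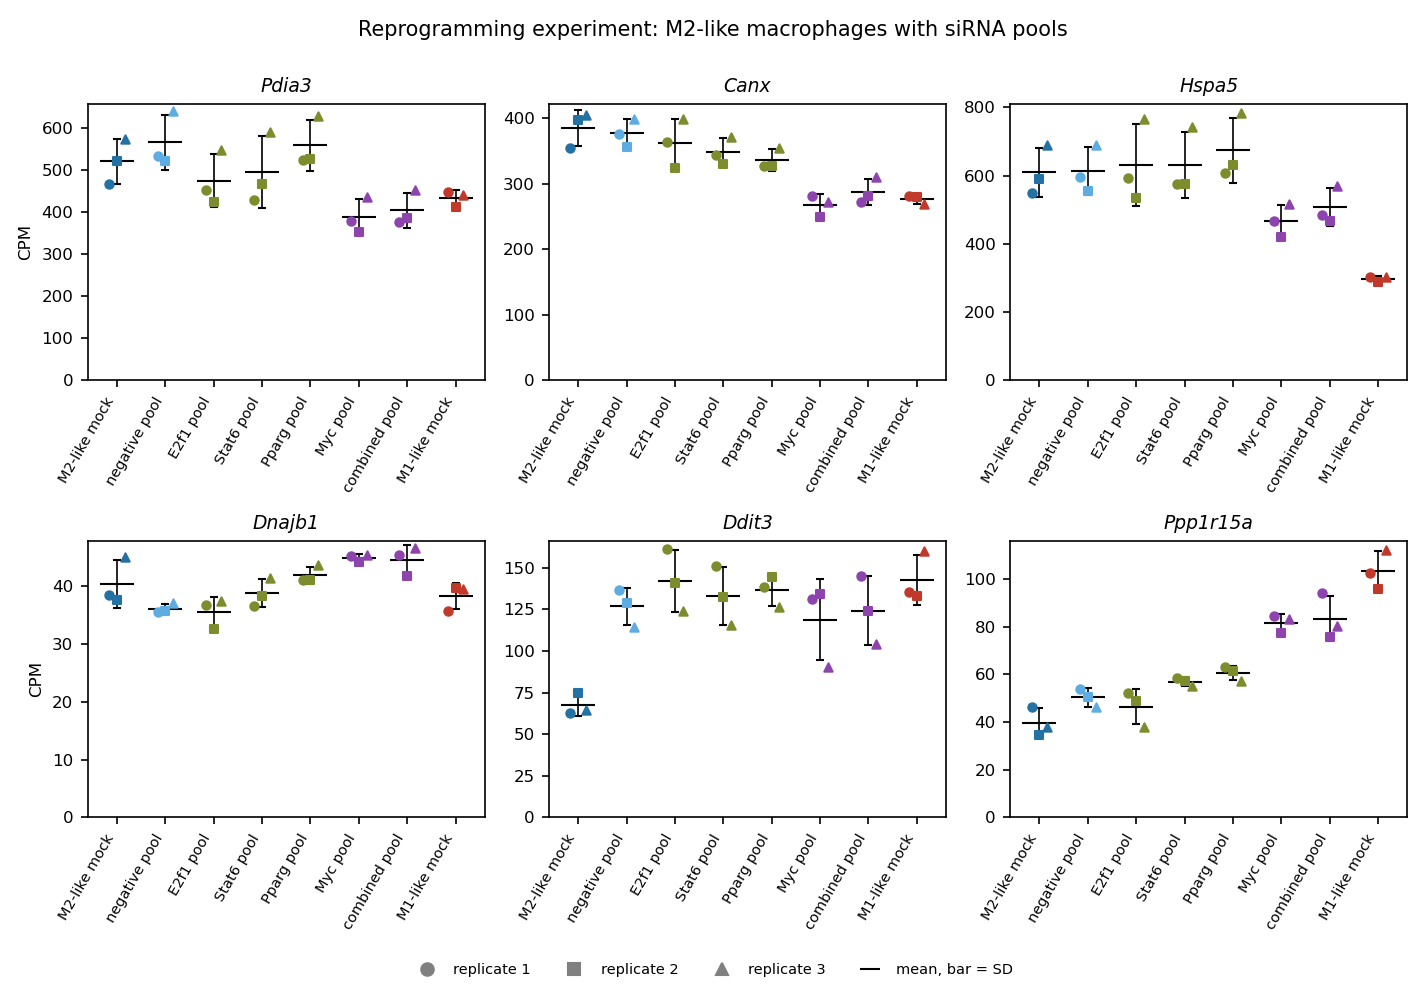
Levels in CPM (y axis, from 0) of 6 genes in mock-treated M2-like macrophages, in M2-like macrophages given siRNA pools and in mock-treated M1-like macrophages (x axis), with 1 symbol per replicate, the mean and a bar of 1 SD (n = 3). Pdia3 and Canx are lower and Ppp1r15a is higher with the Myc and combined pools than with the negative pool in all samples, and Ddit3 is lowest in mock-treated M2-like macrophages.

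The pools against the other factors changed few members. The Pparg pool changed 1 gene, which was higher, where 5.74% of all genes were called, 2.71% higher and 3.03% lower. This was Hspa1a, at 3.13, 2.80 and 2.52 CPM with the negative pool and 4.28, 4.89 and 4.92 CPM with the Pparg pool (0.74 ± 0.17, adjusted p = 0.00726), and the call was lost without negative pool replicate 3, while 2 members passed without Pparg pool replicate 1. At an unadjusted p under 0.05, 8 members (23.5%) passed with this pool, close to the 19.3% of all genes that did, and DESeq2 called 2. The Stat6 pool changed 1 gene, which was lower, where 1.51% of all genes were called, 1.04% lower and 0.466% higher, with 3 members (8.8%) at an unadjusted p under 0.05 against 12.1% of all genes, and 1 by DESeq2. This was P4hb, at 371.5, 374 and 433 CPM (-0.34 ± 0.08, adjusted p = 0.0141), which was lost without Stat6 pool replicate 1 or 2 or negative pool replicate 1 or 3. The E2f1 pool had 0 members called by edgeR, where 0.91% of all genes were called, with 1 member (2.9%) at an unadjusted p under 0.05 against 10.9% of all genes, and 0 by DESeq2. Across all 7 M2-like conditions that received reagent with or without siRNA, Trib3 was lowest in replicate 3, at 10.2 to 18.1 CPM against 17.4 to 36.4 CPM in replicates 1 and 2. Replicate 3 was also lowest in untransfected M2-like macrophages, at 5.29 CPM against 13.7 and 12.7 CPM.

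Compared with mock-treated M1-like macrophages, M2-like macrophages with the combined pool differed in 20 members, 13 higher and 7 lower, where 52.9% of all genes were called, 27.2% higher and 25.6% lower. The macrophage markers summed to 11900 to 12900 against 6440 to 7490 CPM, the mesothelial or fibroblast markers to 118 to 185 against 8.31 to 19.3 CPM, the B cell markers to 13.7 to 25.6 against 0.978 to 2.36 CPM and the eosinophil markers to 23.0 to 35.1 against 0.736 to 1.28 CPM, and their part in these differences was not tested. Only 1 of the 4 eosinophil markers was at 1 CPM or more on average in either group. Hspa5 was at 485, 466 and 569.8 CPM against 303, 288 and 302.5 CPM (0.77 ± 0.12, adjusted p = 2.85e-06), and Calr (0.59), Pdia6 (0.55), Hsp90b1 (0.44) and Sdf2l1 (0.38) were higher as well. The cytosolic genes Hspa8 (0.62), Hsph1 (0.54), Hsp90ab1 (0.50), Hspa4 (0.32), Hsp90aa1 (0.25) and Dnajb1 (0.22) were higher, as were Hspe1 (0.32) and Hspd1 (0.30). Lower were Trib3, at 31.1, 26.7 and 13.0 CPM against 55.8, 72.0 and 78.1 CPM (-1.54 ± 0.34, adjusted p = 0.000312), Hspa1b (-1.02), Hspa9 (-0.62), Dnajb9 (-0.49), Eif2ak3 (-0.40), Ppp1r15a (-0.31) and P4hb (-0.31). Ddit3 (-0.20) and Atf4 (-0.27) did not pass, and Canx, at 272, 281 and 310.1 CPM against 281, 279 and 268.5 CPM, gave 0.06. The call of Sdf2l1 was lost whichever library was left out, that of Dnajb1 without M1-like mock replicate 1 or combined pool replicate 1 or 3, and that of Ppp1r15a without M1-like mock replicate 3 or combined pool replicate 2.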

How the data were processed

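RNA was sequenced from peritoneal macrophages in 54 libraries. Per the labels and the study's methods, the authors trimmed reads with Trimmomatic, aligned them to GRCm38 with TopHat2 and counted them per gene with featureCounts. The deposited values are raw counts per Ensembl gene, 1 file per library. Versions, annotation, strand and multi-mapping settings are not given in the sources used here, and reads of near-identical or overlapping genes can be assigned either way. Groups and replicate numbers follow the labels. Technical replicates of a mouse (chi-square per gene 1.07 to 1.097, against 3.63 to 52.4 between mice) were summed. Symbols, coordinates and exon lengths are those of GENCODE M21, and promoter windows those of RefSeq.

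For each experiment 1 model with a coefficient per condition was fitted over all genes that passed filterByExpr (minimum count 10, minimum total 15), using TMM normalization and the quasi-likelihood F test of edgeR 4.0.16 in R 4.3.3, two-sided, with Benjamini-Hochberg adjustment over all genes tested and a threshold of 0.05. CPM used TMM library sizes, and the SE is the log2 fold change divided by the square root of F. Differences between mock effects were tested as interaction terms. Tables and figures were made with Python 3.11.15. In data simulated from these means and library sizes, changes of 1.5-fold were recovered for 47 of 50 genes of the polarization experiment and 45 of 50 genes of the reprogramming experiment, with 10 and 9 unchanged genes called among 15741 and 13661. The changed genes were drawn from those above a minimum mean level, and 1.5-fold was the smallest change simulated. The recovery rates do not cover smaller changes or genes as low as Hspa1a and Hspa1b.

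In the polarization experiment a number is a mouse and pairs the samples: the median correlation of deviations from the condition means was 0.25 over 9 same-mouse pairs and -0.14 over 18 other pairs (10754 genes). The main fit held no term for the mouse, so its p-values and SEs treat the samples of a mouse as independent. The replicate block named below adds that term. Alternatives were RLE scaling, omitting the filter, requiring 10 counts in every sample, a replicate block, DESeq2 1.42.0, fits of only the compared groups, Hspa1a and Hspa1b summed, technical replicates kept separate, and each sample left out in turn. By rule, genes described sample by sample were those called with the largest changes, up to 3 in each direction, together with the sensors, Xbp1, Atf4 and Ddit3. The comparisons used were LPS and IFNγ against M0 and IL-4 against M0 at 24 h, and mock treatment of M2-like cells. The others used were the negative pool against mock, and the Myc and combined pools against the negative pool. Calr and Trib3 were also given by sample, outside this rule. The 34 genes, the lists and this rule were chosen with earlier results of these data known.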

Additional observations from a re-analysis of the deposited data

Results flagged for a closer look

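The change from untransfected to mock-treated cells differed between macrophage states for several chaperone genes by a test of the difference itself (edgeR interaction term). The reagent cannot be told apart here from a possible difference in culture time or, in M2-like cells, from the absence of IL-4 after transfection. Between M2-like and M0 macrophages the change differed for 4 of the 34 genes, against 5.66% of all genes tested. These were Hspa5 (-0.71 on the log2 scale, adjusted p = 0.00884), Ppp1r15a (-0.86, adjusted p = 0.000487), Xbp1 (-0.44, adjusted p = 0.0283) and Dnajc3 (-0.37, adjusted p = 0.0285). All 4 rose with mock treatment in M0 cells, and their mock effects in M2-like cells, which did not pass, lay between -0.14 and 0.02.

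Between M1-like and M0 macrophages it differed for 5 genes, Hspa5 (-0.81, adjusted p = 0.00148), Ppp1r15a (-0.83, adjusted p = 0.0002), Hsp90b1 (-0.56, adjusted p = 0.0139), Hspa1a (-0.86, adjusted p = 0.0196) and Hspa8 (-0.36, adjusted p = 0.042). Between M1-like and M2-like macrophages it differed for 1 gene, Ddit3 (-0.77, adjusted p = 0.0391), which went from 43.2, 38.9 and 39.1 CPM to 62.7, 74.6 and 64.5 CPM in M2-like cells and from 137, 135 and 167 CPM to 135.5, 133 and 160 CPM in M1-like cells. The contrasts share the untransfected and mock samples of M0, M1-like and M2-like cells. The value for Trib3 between M2-like and M0 macrophages was 1.75 with an adjusted p of 0.0513.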

How the results depend on the processing

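Of 240 calls of a member in a comparison, none changed direction in any alternative run. The number that lost the threshold was 3 with RLE scaling, 15 with no filter, 0 with at least 10 counts in every sample, 1 with the replicate block, 2 with DESeq2 and 15 with only the compared groups in the fit. With 1 sample left out, 154 of 1440 were lost, where each call counts once for every sample left out. Counted by call, losses in at least 1 such fit were more frequent in some comparisons. They were 9 of 13 for mock treatment of M0, 5 of 6 for the negative pool and 7 of 17 for the combined pool against mock. With LPS and IFNγ at 24 h it was 1 of 26. With technical replicates kept separate, 0 of 84 were lost and 1 member passed as lower with IL-4, where edgeR called 0 before. Summing Hspa1a and Hspa1b lost 0 of 235.

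Counts of members that moved by over 1.5 times were as follows, and the cause was not tested. Mock treatment of M2-like cells had 2 higher with no filter (1 before). The negative pool against mock had 2 higher with only the compared groups (4 before), and 4 lower with the replicate block and 1 with only the compared groups (2 before). The combined against the negative pool had 13 lower with the replicate block and 13 with only the compared groups (8 before). The Pparg pool had 2 higher with no filter, at least 10 counts, the block, DESeq2 or only the compared groups (1 before). Mock effects that differed between M2-like and M0 numbered 8 with no filter and 9 with the block (4 before), and between M1-like and M0 they numbered 8 with RLE scaling, 9 with no filter, 8 with at least 10 counts, 15 with the block and 9 with DESeq2 (5 before).

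With 1 sample left out, counts ranged from 0 to 1 for IL-4 lower, 1 to 2 for untransfected M2-like against M0 lower, 6 to 11 and 0 to 1 for mock treatment of M0 higher and lower, 1 to 3 and 0 to 2 for the negative pool, 3 to 6 for the combined pool against mock higher, 7 to 11 for Myc lower, 0 to 2 for Pparg higher and 0 to 1 for Stat6 lower. For the differences between mock effects they ranged from 2 to 6, 3 to 6 and 0 to 1.

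Over all genes, counts moved by over 1.5 times mainly where few genes passed. With E2f1, 37 higher and 92 lower became 61 and 176 with no filter, 70 and 166 with the block and 111 and 231 with only the compared groups, and 59 were higher with DESeq2. With Stat6, 66 and 148 became 121 and 259 with the block and 114 and 237 with DESeq2. With Pparg, 384 higher became 580 with the block. Mock treatment of M2-like cells lowered 14 genes, against 67 with no filter (where 237 higher became 320), 35 with the block, 31 with DESeq2 and 9 with only the compared groups, and that of M1-like cells changed 0 genes against 2 higher and 40 lower with no filter. IL-4 changed 2176 and 2323 genes, against 3592 and 3606 with technical replicates separate. The M1-like minus M2-like mock effect, with 5 and 155, had 30 and 276 with no filter, 2 higher with RLE scaling and 14 with the block.

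In the reprogramming experiment the replicates share only a number. Same-number samples correlated over 0.1 in 131 of 198 pairs (median 0.18, against -0.08 over 396 other pairs), and 34 of 36 samples correlated best with their own number, a hint from the data and not from the design. The block changed no other count of members by over 1.5 times in either experiment. With 3 samples a group the SEs of the members in comparisons of a pair of groups reached 0.40 on the log2 scale (Trib3, mock treatment of M2-like cells). The differences between mock effects combine more groups and are not covered by this value. A p above the threshold does not show that levels were equal.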
